A study of Mus musculus with 12 samples.

Results

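The Fanconi and crosslink repair genes described here are 38 genes, listed by name and all found in the deposited table of 27179 genes. They cover the course of interstrand crosslink repair, from the nucleases to the mending of the break. Whole kidneys of 12 mice aged 8-12 weeks, of Mixed strain background, were sequenced as total RNA, 3 mice in each of 4 groups. Wild-type (WT) mice carried no deletion, whereas the FAN1KO mice, labelled {Gamma}GT1-Cre;Fan1-/-, lost Fan1 through a Cre recombinase driven by the Ggt1 promoter, which is active in the proximal tubule. Each genotype received either saline or a weekly intraperitoneal dose of cisplatin at 2 mg/kg for 5 weeks. Because Cre acts in 1 tubule segment, all other cells of the FAN1KO kidney can still transcribe an intact Fan1, and a whole-kidney level averages over all segments. In such bulk RNA, fewer cells of a type and less RNA per cell cannot be told apart.

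Cisplatin joins the bases of DNA, and when it ties both strands together the link blocks replication and transcription. The Fanconi anemia pathway removes these links in dividing cells: a core complex of FANC proteins with the E2 enzyme UBE2T attaches ubiquitin to the FANCD2-FANCI clamp, nucleases gathered on the SLX4 scaffold cut the link out of 1 strand, translesion polymerases copy past the remnant, and homologous recombination mends the break. FAN1 is a nuclease of the same lesion that binds ubiquitinated FANCD2, and people who lack it develop karyomegalic interstitial nephritis, a kidney disease with enlarged tubular nuclei. Many genes of this pathway are transcribed most in dividing cells, and the adult kidney divides little.

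Promoter windows were available for 31 of the 38 genes. The windows of the 4 genes with the highest log2 fold change of TPM + 1 in FAN1KO against WT kidneys under cisplatin, described below, are shown so that the start of these genes can be read beside their values. The 4 were chosen after their values were seen. Each window covers 300 bases, most of them before the annotated start, and is written 5′ to 3′ on the strand of the gene, from RefSeq on build GRCm38.p6. Capitals mark CCAAT, the word bound by nuclear factor Y, or its reverse complement ATTGG. The coordinates are chr7:19344821-19345120 on the plus strand for Ercc1, chr4:148140240-148140539 on the plus strand for Mad2l2, chr8:123318527-123318826 on the minus strand for Fanca and chr1:134962315-134962614 on the plus strand for Ube2t.
Ercc1: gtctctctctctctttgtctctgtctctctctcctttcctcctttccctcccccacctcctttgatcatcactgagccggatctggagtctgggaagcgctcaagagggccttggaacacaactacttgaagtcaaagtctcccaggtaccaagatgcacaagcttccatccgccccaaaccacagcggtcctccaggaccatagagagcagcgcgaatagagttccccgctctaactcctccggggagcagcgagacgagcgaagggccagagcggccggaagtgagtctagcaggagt
Mad2l2: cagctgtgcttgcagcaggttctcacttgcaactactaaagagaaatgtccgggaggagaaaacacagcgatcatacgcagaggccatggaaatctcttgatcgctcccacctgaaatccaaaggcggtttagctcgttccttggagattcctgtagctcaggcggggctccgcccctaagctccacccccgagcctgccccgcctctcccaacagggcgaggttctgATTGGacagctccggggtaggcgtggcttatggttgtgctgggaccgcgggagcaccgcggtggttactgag
Fanca: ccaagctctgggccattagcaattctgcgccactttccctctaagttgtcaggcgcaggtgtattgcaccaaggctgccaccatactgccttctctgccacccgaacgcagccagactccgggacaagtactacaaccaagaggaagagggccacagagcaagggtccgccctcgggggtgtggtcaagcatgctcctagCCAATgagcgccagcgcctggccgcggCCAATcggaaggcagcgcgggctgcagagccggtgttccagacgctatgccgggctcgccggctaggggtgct
Ube2t: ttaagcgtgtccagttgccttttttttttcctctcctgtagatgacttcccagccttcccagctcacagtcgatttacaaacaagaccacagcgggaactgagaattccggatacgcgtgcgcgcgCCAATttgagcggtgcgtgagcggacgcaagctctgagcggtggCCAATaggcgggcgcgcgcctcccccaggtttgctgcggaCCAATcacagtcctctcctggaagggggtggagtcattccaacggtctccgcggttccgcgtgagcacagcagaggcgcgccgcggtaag
CCAAT stood 3 times in the Ube2t window, 2 times in the Fanca window and 1 time, on the opposite strand, in the Mad2l2 window shown, and the Ercc1 window held none. Mad2l2 has another annotated start, and its window there, chr4:148130670-148130969 on the plus strand, held no CCAAT. Rad51c, Rad54l and Rmi1 also have more than 1 window, and such a gene was counted as holding a word when any of its windows did, among the members and among all genes alike. Searched on both strands, CCAAT occurred in 18 of the 31 members with a window, or 58.1%, against 41.1% of 27025 genes with a window. Of the 12 members that rose under cisplatin 10 had a window, and CCAAT occurred in 7 of them and in 11 of the 21 other members.

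Another search used TTTCCCGC and TTTGGCGC, core words of the sites of E2F factors, which drive genes of DNA replication. Either word, on either strand, occurred in 4 of the 31 members, or 12.9%, against 1.798% of all genes with a window. The 4 were Brca2, Fancg, Rad51c and Rmi1, and none of the 10 members with a window that rose in FAN1KO against WT kidneys under cisplatin held either word. The stretches of 60 bases around the matches are shown because they are the only places where these letters occur, with the word in capitals. They lie at chr5:150522427-150522486 on the plus strand for Brca2, chr4:43010320-43010379 on the minus strand for Fancg, chr11:87404926-87404985 on the minus strand for Rad51c and chr13:58402587-58402646 on the plus strand for Rmi1.
Brca2: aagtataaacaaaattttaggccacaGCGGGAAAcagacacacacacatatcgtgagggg
Fancg: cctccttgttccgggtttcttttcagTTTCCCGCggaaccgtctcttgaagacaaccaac
Rad51c: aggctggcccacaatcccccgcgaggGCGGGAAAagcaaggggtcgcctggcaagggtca
Rmi1: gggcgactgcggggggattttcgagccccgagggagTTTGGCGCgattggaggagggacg
In Brca2 and Rad51c the capitals read as the reverse complement, so the word is on the opposite strand there. TTTGAA, the core of the cell cycle homology region bound by the repressor complex of resting cells, occurred on either strand in 4 of the 31 members, or 12.9%, against 20.2% of all genes with a window. None of the 3 motifs contains another, and a match or its absence describes these 300 bases alone.

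Levels are given in TPM, a share of all transcripts that corrects for gene length and library depth. The lowest and highest of the 12 libraries held 37201758 and 82946655 reads, recovered from the steps of the TPM values. A gene was called when the limma test on log2(TPM + 1), adjusted over the 18289 genes with a mean of at least 0.1 TPM, gave a p under 0.05, and all 38 members passed this filter. Exo1 passed through the FAN1KO cisplatin group alone, with a mean of 0.0525 TPM over the other 9 libraries, so its call rests on a filter that its own rise met. Leaving out all genes of that kind, 11 of 37 members (29.7%) and 7 of 12 with a mean under 1 TPM (58.3%) were called higher in FAN1KO against WT under cisplatin, against 17.0% and 10.8% of all genes left. Fold changes on this scale understate the change of genes with a low level. For members called in FAN1KO against WT under cisplatin, the ratio of mean TPM is therefore given too. In each group 1 library carried RNA of Y-linked genes, with a mean of 3.46 to 3.93 on the log2(TPM + 1) scale against at most 0.104 in the other 8 libraries. Those libraries (WT saline 3, FAN1KO saline 1, WT cisplatin 1 and FAN1KO cisplatin 3) also held the lowest value of their group for 29, 23, 30 and 25 of the 38 members. Over all genes the same libraries were lowest for 65.7%, 68.5%, 69.1% and 63.4%, and the difference from the members was not tested. Nothing in the labels states that the 3 mice of a group came from separate litters, and p-values measure the spread between these mice.

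In FAN1KO kidneys under cisplatin, 12 of the 38 repair genes rose and none fell compared with WT kidneys under the same dose. Across all genes tested, 17.5% were called higher and 3.57% lower, against 31.6% and 0 of the members. The 12 were Ercc1, Mad2l2, Fanca, Ube2t, Brca1, Slx4, Eme1, Rad54l, Blm, Fanci, Exo1 and Fancd2, which come from every step of the pathway. The median log2 fold change was 0.31 over the members and 0.21 over all genes tested, and 34 of the 38 members lay above 0. In 18 members all 3 FAN1KO values stood above all 3 WT values, and in none did they all stand below, while 32.8% and 7.70% of all genes separated in these directions.

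**Figure D1:**
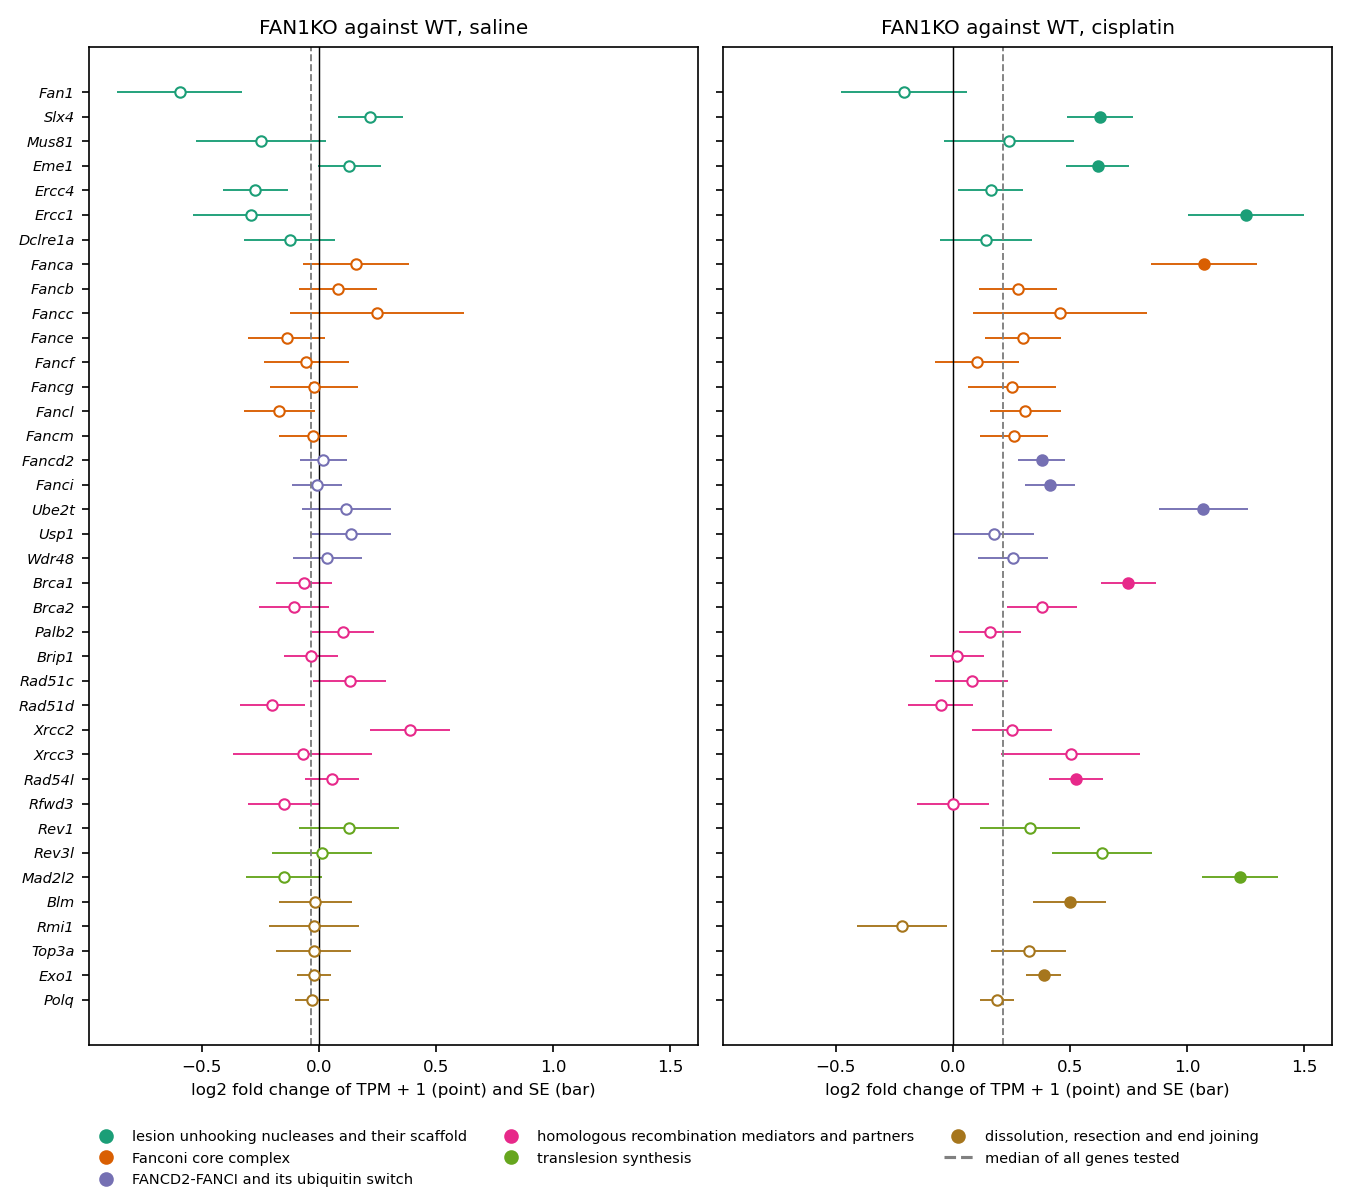
Log2 fold change of TPM + 1 in FAN1KO against WT kidneys (x axis) for each of the 38 repair genes (y axis, coloured by role), on the left under saline and on the right under cisplatin, with bars of 1 SE. Filled points passed the limma test at an adjusted p under 0.05 and dashed lines give the median of all 18289 genes tested. No gene is filled under saline and 12 are filled under cisplatin, where the median of all genes is itself shifted to 0.21.

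The shift of the whole table matters for these numbers. After median-ratio scaling, which sets the typical gene equal between libraries, the median of all genes moved from 0.21 to 0.00 and that of the members from 0.31 to 0.07, with 25 of the 38 above 0. By that scaling 9 members remained higher and 1, Rmi1, was lower, with 8.36% of all genes higher and 6.10% lower. Ercc1, Mad2l2, Fanca, Ube2t, Brca1, Eme1, Rad54l, Exo1 and Fancd2 were called on both scales. Slx4, Blm and Fanci lost the call, with adjusted p of 0.0738, 0.0645 and 0.0624. Of the 13 with a mean under 1 TPM over all libraries, 8 were called higher (61.5%, against 13.6% of the 4023 genes at that level). Of the 25 with a mean of at least 1 TPM, 4 were called higher (16.0%, against 18.5% of 14266 genes). The mean includes the FAN1KO cisplatin libraries, so a member's own rise enters its level. The difference between the levels was not tested. After median-ratio scaling the counts were 6 of 13 (9.22% of all genes at that level) and 3 of 25 (8.12%), and by voom on recovered reads 4 of 13 (6.97%) and 5 of 25 (8.12%).

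**Figure D2:**
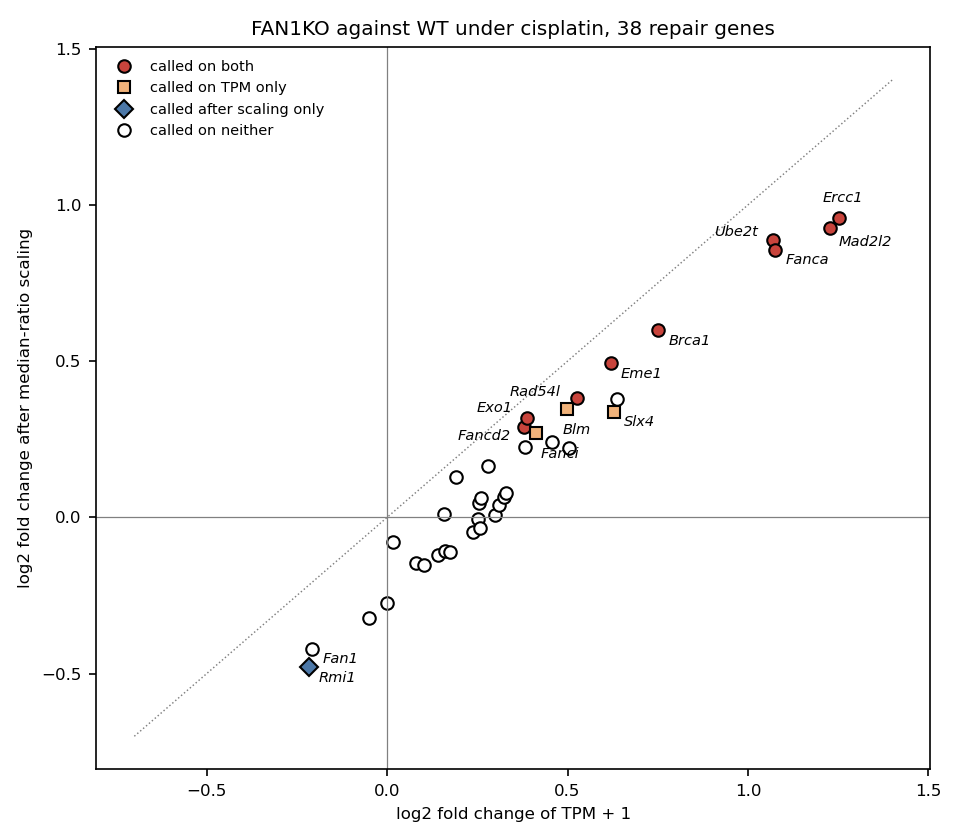
Log2 fold change of each of the 38 repair genes in FAN1KO against WT kidneys under cisplatin, on TPM as deposited (x axis) and after median-ratio scaling (y axis), with the line of equality dotted. Every point lies below that line. Circles filled red passed the test on both scales (9 genes), squares on TPM alone (Slx4, Blm and Fanci), and the diamond, Rmi1, after scaling alone, in the lower direction.

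Cutting the link loose is the work of nucleases, some of them held on the SLX4 scaffold. Of the 7 nuclease and scaffold genes, 3 rose (42.9%, against 17.5% of all genes). Fan1, the deleted nuclease itself, lies at chr7:64345385-64374128. It stood at 3.80, 3.35 and 1.98 TPM in WT saline, 1.17, 1.54 and 2.28 TPM in FAN1KO saline, 2.33, 3.57 and 3.32 TPM in WT cisplatin and 2.72, 3.51 and 1.54 TPM in FAN1KO cisplatin. The groups overlapped under both treatments, and the log2 fold changes of FAN1KO against WT were -0.59 ± 0.27 (SE, limma adjusted p = 0.642) under saline and -0.21 ± 0.27 (adjusted p = 0.617) under cisplatin. Under cisplatin the value was -0.42 after median-ratio scaling (adjusted p = 0.174) and -0.58 by voom on the recovered reads (adjusted p = 0.201). An exact two-sided permutation test gave p = 0.2 and p = 0.6, where 3 mice against 3 cannot go below 0.1. The table sums reads over the whole gene, so it does not separate transcripts with the deletion from intact ones.

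Ercc1 (chr7:19344067-19356524), the partner that the nuclease XPF needs to cut beside a crosslink, had the highest log2 fold change of TPM + 1 of the members. Its TPM was 13.4, 12.9 and 11.7 in WT saline, 7.66, 11.9 and 11.6 in FAN1KO saline, 9.98, 19.9 and 18.9 in WT cisplatin and 40.9, 43.9 and 31.8 in FAN1KO cisplatin. The FAN1KO cisplatin kidneys stood apart from all 9 others, and WT cisplatin 1, a library with Y-linked RNA, was low in its group. Mean TPM was 38.9 ± 6.29 (SD, n = 3) against 16.2 ± 5.45 in WT, a ratio of 2.39 and a log2 fold change of 1.25 ± 0.25 (SE, limma adjusted p = 0.00694). Ercc4, which encodes XPF itself, was at 7.69 ± 0.795 TPM against 6.75 ± 0.341 TPM (SD, n = 3) and was not called (adjusted p = 0.438). Ercc1 shares 518 bases of its locus with Cd3eap, and without known strand reads there cannot be assigned to 1 of the genes.

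Slx4 (chr16:3979105-4003829), the scaffold that holds XPF-ERCC1, MUS81-EME1 and SLX1, stood at 11.4, 10.2 and 7.95 TPM in WT saline, 10.8, 11.3 and 12.4 TPM in FAN1KO saline, 10.7, 11.4 and 11.3 TPM in WT cisplatin and 18.9, 18.5 and 16.0 TPM in FAN1KO cisplatin. The last group did not overlap any other. Its log2 fold change under cisplatin was 0.63 ± 0.14 (SE, limma adjusted p = 0.0114), a ratio of mean TPM of 1.60.

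Eme1 (chr11:94644972-94653836), the noncatalytic partner of MUS81, was the lowest member in WT saline kidneys. Its TPM was 0.0421, 0 and 0.0717 in WT saline, 0.338, 0.0751 and 0.018 in FAN1KO saline, 0.0929, 0.285 and 0.129 in WT cisplatin and 0.901, 0.980 and 0.526 in FAN1KO cisplatin, from 0 to 49 reads a library. The library at 0 allows up to 0.0570 TPM at 3 reads, counting error alone. All FAN1KO cisplatin values exceeded those of the other groups (log2 fold change against WT cisplatin 0.62 ± 0.13, limma adjusted p = 0.0101, ratio of mean TPM 4.75). Its locus shares 252 bases with Lrrc59 (mean 53.35 TPM) and 67 bases with Mrpl27 (mean 67.33 TPM). By voom on the recovered reads Eme1 was not called (adjusted p = 0.0985). Mus81, its catalytic partner, was at 15.2 ± 2.81 TPM against 12.9 ± 3.34 TPM (SD, n = 3) and overlapped between the genotypes. Dclre1a, the exonuclease SNM1A that digests past a crosslink, was likewise not called, at 6.38 ± 1.12 TPM against 5.67 ± 0.859 TPM. In each of these nuclease pairs the noncatalytic partner (Ercc1, Eme1) was called and the catalytic subunit (Ercc4, Mus81) was not. The difference between the partners was not tested.

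**Figure D3:**
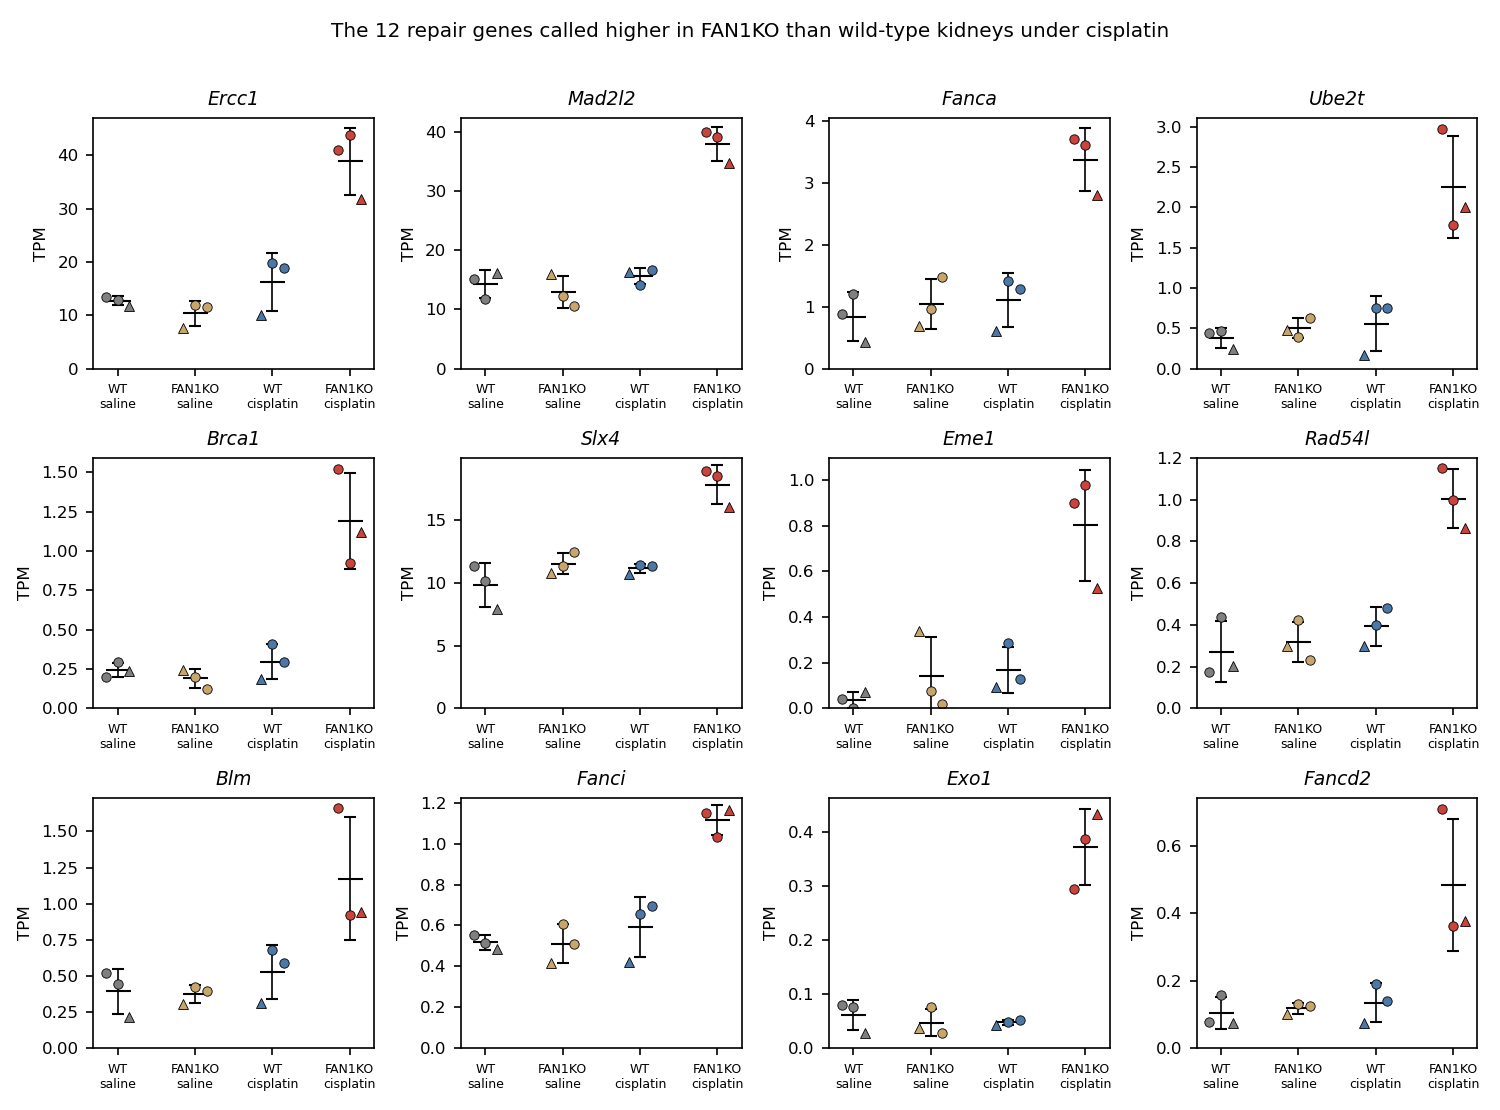
TPM (y axis, from 0, scaled per panel) of the 12 repair genes called higher in FAN1KO than WT kidneys under cisplatin, in the 4 groups of 3 mice (x axis). Bars give the mean ± SD, cut at 0 for Eme1, and triangles mark the library of each group with Y-linked RNA. In every panel the 3 FAN1KO cisplatin values lie above the 3 WT cisplatin values, for instance 31.8 to 43.9 TPM against 9.98 to 19.9 TPM for Ercc1.

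Of the 8 genes of the core complex, the ubiquitin ligase machine of the pathway, 1 rose (12.5%, against 17.5% of all genes). Fanca (chr8:123266294-123318651), a scaffold subunit, stood at 0.881, 1.21 and 0.422 TPM in WT saline, 0.686, 0.959 and 1.49 TPM in FAN1KO saline, 0.606, 1.42 and 1.29 TPM in WT cisplatin and 3.72, 3.62 and 2.80 TPM in FAN1KO cisplatin. The last group lay above all others and reached 3.38 ± 0.502 TPM (SD, n = 3) against 1.10 ± 0.435 TPM in WT cisplatin. The ratio of means was 3.07 and the log2 fold change 1.07 ± 0.23 (SE, limma adjusted p = 0.00900). Fanca shares 4258 bases with Zfp276, a zinc finger gene with a mean of 6.46 TPM.

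The other 7 core genes were not called. Fancl (chr11:26387084-26471883), the RING subunit that carries the ligase activity, stood at 6.11, 5.97 and 5.77 TPM in WT cisplatin and 8.48, 7.08 and 7.35 TPM in FAN1KO cisplatin, and at 4.26 to 6.44 TPM in the saline groups. Its cisplatin values did not overlap, but the test did not call it (log2 fold change 0.31 ± 0.15, limma adjusted p = 0.168). Fancc (chr13:63301334-63497292), which links subunits within the complex, varied more within groups than between them: 3.45, 2.36 and 1.25 TPM in WT saline, 1.15, 4.19 and 4.05 TPM in FAN1KO saline, 1.21, 2.09 and 3.07 TPM in WT cisplatin and 3.78, 2.78 and 2.99 TPM in FAN1KO cisplatin. In the first 3 groups the lowest of these values came from the library with Y-linked RNA, a link whose part in the spread was not tested. The log2 fold change of Fancc was 0.46 ± 0.37 (limma adjusted p = 0.411).
Fancb, Fance, Fancf, Fancg and Fancm, which complete the complex and, for FANCM, bring it to the DNA, had log2 fold changes from 0.10 (Fancf) to 0.30 (Fance), with adjusted p from 0.215 to 0.717. Fance was the most abundant of them at 23.0 ± 4.79 TPM in FAN1KO cisplatin, and Fancb the least at 0.676 ± 0.287 TPM (SD, n = 3).

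Of the 5 genes of the FANCD2-FANCI clamp and its ubiquitin switch, 3 rose: Ube2t, Fanci and Fancd2. Among all genes tested, 17.5% were called higher in FAN1KO against WT kidneys under cisplatin. Usp1 and Wdr48 were not called, and the difference between them and the other 3 was not tested. Ube2t (chr1:134962565-134974180), the E2 that works with FANCL, stood at 0.435, 0.471 and 0.240 TPM in WT saline, 0.476, 0.388 and 0.630 TPM in FAN1KO saline, 0.164, 0.756 and 0.754 TPM in WT cisplatin and 2.97, 1.77 and 2.01 TPM in FAN1KO cisplatin. Every FAN1KO cisplatin kidney was above 1 TPM and every other kidney below it. The ratio of mean TPM was 4.03 and the log2 fold change 1.07 ± 0.19 (SE, limma adjusted p = 0.00423).

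Fanci (chr7:79392312-79450266) stood at 0.555, 0.513 and 0.484 TPM in WT saline, 0.415, 0.607 and 0.511 TPM in FAN1KO saline, 0.422, 0.657 and 0.694 TPM in WT cisplatin and 1.15, 1.03 and 1.16 TPM in FAN1KO cisplatin, with no overlap of the last group (log2 fold change 0.41 ± 0.11, limma adjusted p = 0.0219). The ratio of mean TPM against WT cisplatin was 1.885. The call of Fanci was lost after median-ratio scaling (adjusted p = 0.0624) and by voom (0.0743). Its locus overlaps Polg by 4036 bases, and Polg, the mitochondrial DNA polymerase, had a mean of 17.6 TPM. Fancd2 (chr6:113531640-113597020), its partner in the clamp, was lower throughout, at 0.0785, 0.159 and 0.0752 TPM in WT saline, 0.10, 0.131 and 0.126 TPM in FAN1KO saline, 0.0742, 0.190 and 0.140 TPM in WT cisplatin and 0.710, 0.363 and 0.378 TPM in FAN1KO cisplatin. FAN1KO cisplatin 1 was highest, and the group did not overlap the others (0.38 ± 0.10, adjusted p = 0.0246, ratio of means 3.59). Fancd2 was called in 17 of its 22 alternative settings, with a limma adjusted p of up to 0.102. Usp1, the protease that removes the ubiquitin, and Wdr48, its activator, were at 15.0 ± 3.06 and 18.3 ± 2.41 TPM in FAN1KO cisplatin against 13.0 ± 1.20 and 15.1 ± 0.80 TPM in WT cisplatin (SD, n = 3), with adjusted p of 0.501 and 0.243.

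Of the 10 recombination mediators and partners, 2 rose (20.0%, near the 17.5% of all genes). Brca1 (chr11:101488761-101551955), which promotes end resection, stood at 0.202, 0.293 and 0.237 TPM in WT saline, 0.247, 0.202 and 0.126 TPM in FAN1KO saline, 0.187, 0.409 and 0.295 TPM in WT cisplatin and 1.52, 0.925 and 1.12 TPM in FAN1KO cisplatin. The lowest FAN1KO cisplatin value was above the highest of the other 9. The log2 fold change was 0.75 ± 0.12 (SE, limma adjusted p = 0.00242) and the ratio of mean TPM 4.01.

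Rad54l (chr4:116094261-116123700), a translocase of homologous recombination, stood at 0.173, 0.440 and 0.201 TPM in WT saline, 0.301, 0.422 and 0.234 TPM in FAN1KO saline, 0.298, 0.398 and 0.482 TPM in WT cisplatin and 1.15, 0.999 and 0.865 TPM in FAN1KO cisplatin. Again the last group stood apart (0.53 ± 0.12, limma adjusted p = 0.0113, ratio of means 2.56). By voom Rad54l was not called (adjusted p = 0.0561). Lrrc41, with a mean of 25.7 TPM, overlaps 2849 bases of its locus. Xrcc3 (chr12:111803192-111813893), a recombination mediator, reached 15.7, 11.4 and 8.85 TPM in FAN1KO cisplatin against 6.08, 8.04 and 10.2 TPM in WT cisplatin and 3.92 to 8.00 TPM in the saline groups. The cisplatin groups overlapped and the gene was not called (0.50 ± 0.30, adjusted p = 0.254).
The remaining 7 of these genes were not called, with log2 fold changes from -0.05 to 0.38. Brca2, a central mediator of recombination, came nearest, at 1.17 ± 0.235 against 0.663 ± 0.147 TPM (SD, n = 3, adjusted p = 0.0965), with no overlap between the genotypes. Brip1, the helicase partner of BRCA1, stood at 0.487 ± 0.110 against 0.467 ± 0.0661 TPM, Rad51d at 8.24 ± 0.647 against 8.58 ± 0.871 TPM, and Rfwd3, a ubiquitin ligase acting on RPA, at 8.66 ± 1.25 against 8.62 ± 0.423 TPM.

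All 3 translesion genes lay above 0 and 1 rose (33.3%, against 17.5% of all genes). Mad2l2 (chr4:148130158-148145704), which encodes REV7, the adaptor of polymerase zeta and a part of the shieldin complex that limits resection, stood at 15.2, 11.7 and 16.2 TPM in WT saline, 16.0, 12.2 and 10.7 TPM in FAN1KO saline, 16.3, 14.1 and 16.7 TPM in WT cisplatin and 40.1, 39.3 and 34.8 TPM in FAN1KO cisplatin. The first 3 groups overlapped each other and the last lay far above them. With 38.1 ± 2.86 TPM against 15.7 ± 1.37 TPM (SD, n = 3), the ratio of means was 2.42 and the log2 fold change 1.23 ± 0.16 (SE, limma adjusted p = 0.00111).
Rev3l (chr10:39731561-39875211), the catalytic subunit of polymerase zeta, stood at 6.60, 6.27 and 5.05 TPM in FAN1KO cisplatin, 2.99, 4.15 and 3.33 TPM in WT cisplatin and 2.5 to 4.31 TPM in the saline groups. The cisplatin values did not overlap, and the test missed the threshold (0.64 ± 0.21, limma adjusted p = 0.0572). By voom Rev3l was called (adjusted p = 0.0405), as it was in 7 of 23 alternative settings in all. Rev1 (chr1:38052786-38129921), the scaffold polymerase that REV7 binds, stood at 5.94, 5.94 and 4.74 TPM against 3.24, 4.11 and 5.41 TPM and overlapped (0.33 ± 0.21, adjusted p = 0.296). In the saline groups Rev1 ranged from 2.55 to 4.42 TPM.

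Of the 5 genes of dissolution, resection and end joining, 2 rose, where 17.5% of all genes were called higher. Blm (chr7:80454993-80535148), the helicase that dissolves joint molecules, stood at 0.518, 0.445 and 0.218 TPM in WT saline, 0.305, 0.423 and 0.396 TPM in FAN1KO saline, 0.317, 0.678 and 0.590 TPM in WT cisplatin and 1.66, 0.919 and 0.940 TPM in FAN1KO cisplatin. FAN1KO cisplatin 1 was highest, and no value of that group fell to the level of another (0.50 ± 0.16, limma adjusted p = 0.0450). The ratio of mean TPM against WT cisplatin was 2.22. Of the 12 genes Blm was nearest the threshold, and 5 of its 22 alternative settings called it. Median-ratio scaling and voom were not among these (adjusted p = 0.0645 and 0.0822).

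Exo1 (chr1:175880768-175911396), a nuclease that resects DNA ends, had the highest ratio of the members, from 4 to 53 reads a library, and entered the test through its FAN1KO cisplatin values alone. It stood at 0.0795, 0.0769 and 0.029 TPM in WT saline, 0.0373, 0.0760 and 0.029 TPM in FAN1KO saline, 0.0430, 0.0494 and 0.0521 TPM in WT cisplatin and 0.295, 0.388 and 0.434 TPM in FAN1KO cisplatin. The ratio of mean TPM was 7.74, while the log2 fold change, damped by the pseudocount of 1, was 0.39 ± 0.07 (SE, limma adjusted p = 0.00577). Top3a (chr11:60738209-60777365), the topoisomerase of the BLM complex, stood at 6.48, 5.68 and 5.80 TPM against 4.49, 4.76 and 4.48 TPM in WT cisplatin and was not called (0.32 ± 0.16, adjusted p = 0.174). In the saline groups Top3a ranged from 3.05 to 4.56 TPM.

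Rmi1, which holds BLM and TOP3A together, had the lowest log2 fold change of the members. It stood at 7.26, 6.09 and 4.93 TPM in WT saline, 4.72, 6.81 and 6.49 TPM in FAN1KO saline, 6.74, 7.76 and 7.64 TPM in WT cisplatin and 6.30, 7.43 and 5.05 TPM in FAN1KO cisplatin, so that the groups overlapped. On TPM its log2 fold change was -0.22 ± 0.19 (limma adjusted p = 0.450), and after median-ratio scaling it was -0.48 with an adjusted p of 0.0273. Polq, the polymerase of microhomology end joining, stood at 0.175, 0.139 and 0.147 TPM in WT saline, 0.140, 0.132 and 0.117 TPM in FAN1KO saline, 0.118, 0.127 and 0.0616 TPM in WT cisplatin and 0.296, 0.261 and 0.216 TPM in FAN1KO cisplatin. The cisplatin values of Polq did not overlap and the test did not call it (0.19 ± 0.07, adjusted p = 0.0856, ratio of means 2.52).

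**Figure D4:**
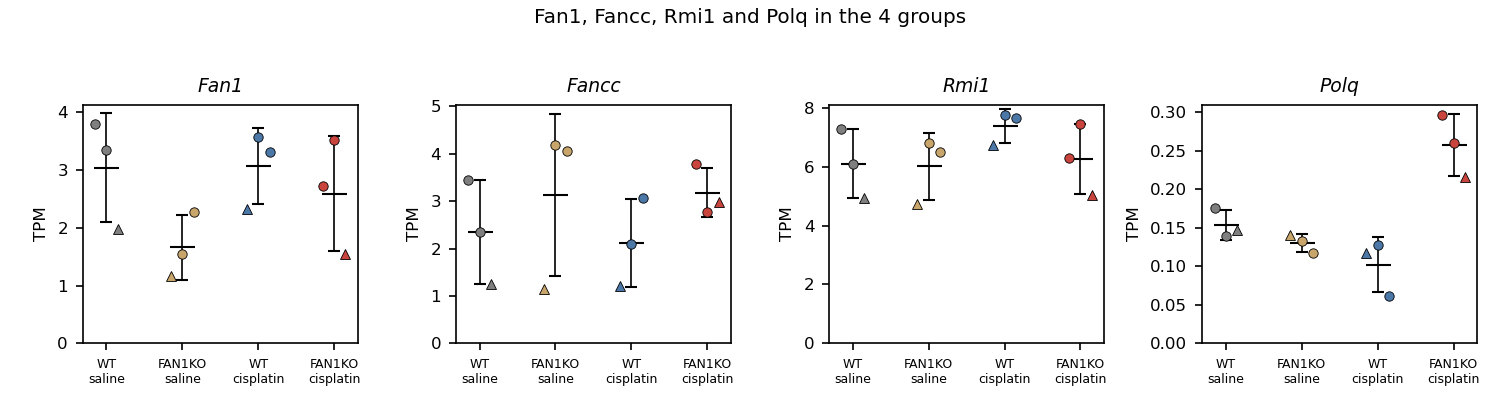
TPM (y axis, from 0) of Fan1, Fancc, Rmi1 and Polq, which the test on log2(TPM + 1) of all 12 libraries without a covariate called in no comparison, in the 4 groups of 3 mice (x axis), with bars of mean ± SD and triangles for the library with Y-linked RNA. Fan1 reached 3.51 TPM in a FAN1KO cisplatin kidney and 1.98 TPM in a WT saline kidney, and the Polq values of FAN1KO cisplatin kidneys, 0.216 to 0.296 TPM, lie above all others.

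Without cisplatin the test called hardly any gene between the genotypes, in the whole table as among the members. Under saline 0 of the 38 members were called higher or lower by limma, near the 0.235% and 0.279% of all genes. Unadjusted, 2 members had a p under 0.05: Fan1, and Xrcc2, a recombination mediator at 2.15 ± 0.461 against 1.39 ± 0.315 TPM (SD, n = 3). After median-ratio scaling the count was also 0, where 0.399% of all genes were higher and 0.355% lower, and limma voom on the recovered reads called 0 as well. The members' log2 fold changes ran from -0.59 (Fan1) to 0.39 (Xrcc2), with a median of -0.02 against -0.03 over all genes. In Ercc4 and Rad51d all FAN1KO saline values stood below the WT saline values, in no member above, and 7.81% and 4.56% of all genes separated so.

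In WT kidneys, cisplatin changed few genes of the whole table enough to be called, and none of the members. The limma count was 0 of 38 in either direction, and 0.0547% of all genes were called higher and 0.0% lower. No member reached an unadjusted p under 0.05, and voom called 0. After median-ratio scaling 0 members were called, with 0.0656% of all genes higher and 0.00547% lower. The median log2 fold change was 0.13 over the members and 0.07 over all genes, and 35 of the 38 lay above 0 (29 after median-ratio scaling). The highest was Xrcc3 (0.32 ± 0.30, limma adjusted p = 1.0) and the lowest Fancc (-0.09 ± 0.37, adjusted p = 1.0). In Eme1, Ercc4, Palb2 and Rad51d the cisplatin values stood above the saline values without overlap, and in Polq below, while 5.23% and 1.13% of all genes separated so. In the same WT kidneys 6 of 8 p53 response genes were called higher (4 after median-ratio scaling and 4 by voom), and 0 of 16 cell cycle genes and 0 of 6 injured tubule genes were, by limma or voom, with 0 and 4 at an unadjusted p under 0.05.

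In FAN1KO kidneys the same dose raised 22 of the 38 genes and lowered none. Of all genes tested 31.4% were called higher and 3.93% lower. The 3 FAN1KO cisplatin libraries also enter the comparison with WT cisplatin, so the 2 lists of calls do not bear on each other independently. Every member lay above 0 on TPM, with a median of 0.49 against 0.32 over all genes, while after median-ratio scaling 28 lay above and 10 below 0, with a median of 0.14 against 0.01. In 30 of the 38 the values did not overlap (44.5% of all genes). By role, 4 of 7 nuclease genes, 5 of 8 core genes, 3 of 5 clamp and ubiquitin genes, 5 of 10 recombination genes, 2 of 3 translesion genes and 3 of 5 dissolution and end genes rose. Ercc1 had the highest log2 fold change at 1.82 ± 0.25 (SE, limma adjusted p = 0.000614), from 10.4 ± 2.37 to 38.9 ± 6.29 TPM (SD, n = 3). Mad2l2 followed at 1.5 ± 0.16 (adjusted p = 0.000208), then Fanca and Ube2t at 1.11 ± 0.23 and 1.10 ± 0.19. Brca1 at 0.87 ± 0.12 (adjusted p = 0.00061) went from 0.192 ± 0.0611 to 1.19 ± 0.306 TPM.

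Other genes of these steps rose too. Ercc4 went from 4.63 ± 0.304 to 7.69 ± 0.795 TPM, Fance from 13.9 ± 1.60 to 23.0 ± 4.79 TPM, Fancg from 3.53 ± 0.450 to 5.70 ± 1.32 TPM, and Fancm from 1.22 ± 0.0532 to 1.99 ± 0.415 TPM (SD, n = 3). Fancl, Brca2, Rad51d, Xrcc3, Rev3l and Top3a also rose, with log2 fold changes from 0.41 (Rad51d) to 0.90 (Xrcc3). After median-ratio scaling 11 members were higher, where 13.8% of all genes were higher and 11.2% lower, and none of these 10 genes was among them. Fan1, Mus81 and Dclre1a of the nuclease group, Fancc, Usp1, Rmi1 and Polq were among the 16 that were not called. Without FAN1KO cisplatin 1 the count was 14, and the share of all genes called in that fit is not given here.

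**Figure D5:**
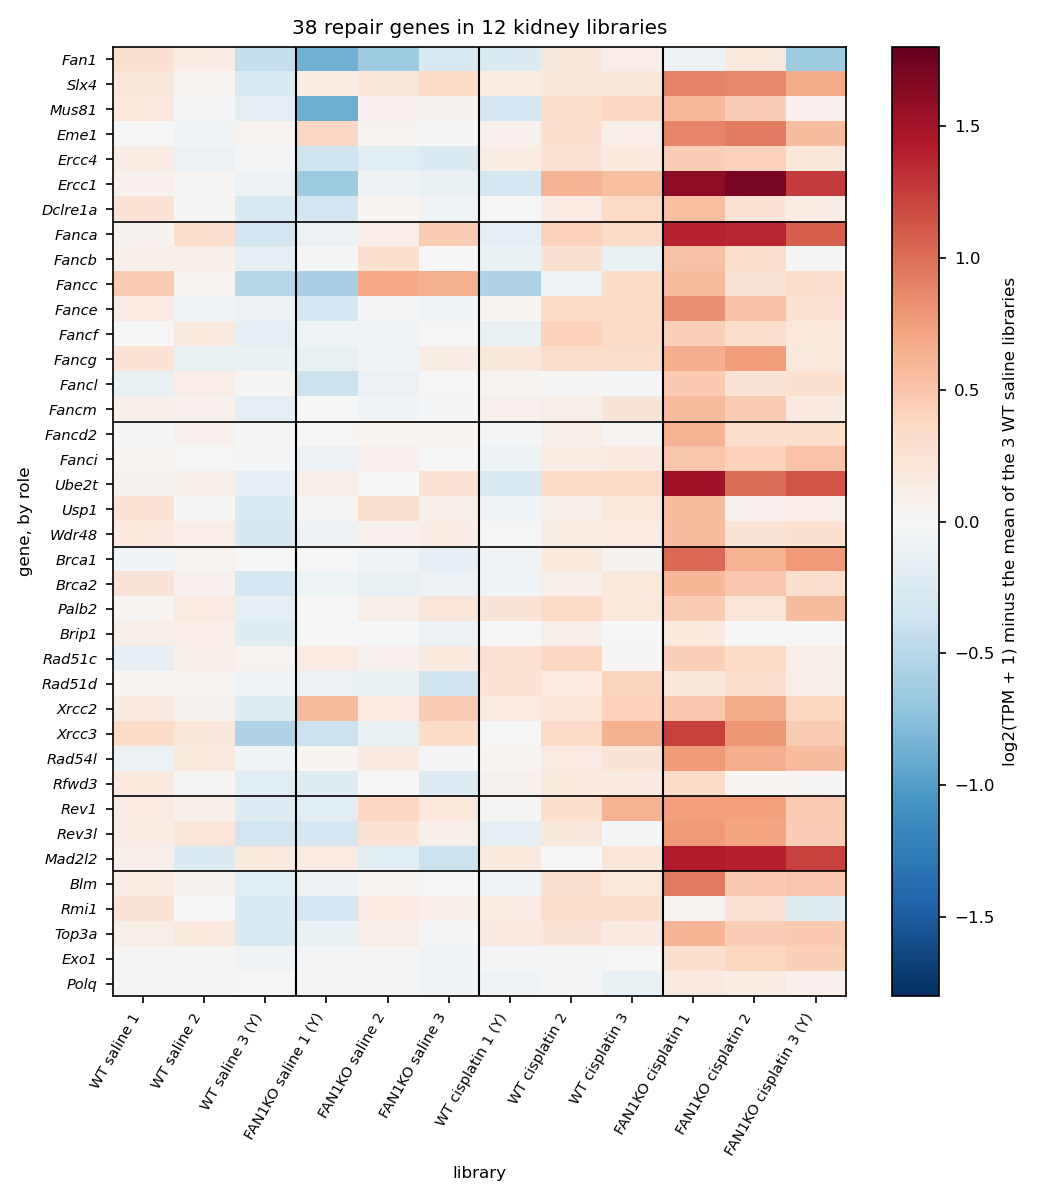
Log2(TPM + 1) of the 38 repair genes (rows, grouped by role) in the 12 kidney libraries (columns, "Y" for libraries with Y-linked RNA), minus the mean of the 3 WT saline libraries, from blue (lower) to red (higher). The 3 FAN1KO cisplatin columns are the reddest, with Ercc1, Mad2l2, Fanca and Ube2t the strongest rows, and in the saline columns the bluest cells are those of Fan1 and Mus81 in FAN1KO saline 1 (1.17 and 5.72 TPM).

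Whether cisplatin acted differently in the 2 genotypes was tested by the interaction, the difference between the 2 log2 responses. It was called for 3 of the 38 members, all higher in FAN1KO, while 4.29% of all genes were called higher and 0.744% lower. Mad2l2 responded by 1.37 ± 0.23 (SE) more on the log2 scale (limma adjusted p = 0.0135), Brca1 by 0.81 ± 0.17 (adjusted p = 0.0264) and Ercc1 by 1.54 ± 0.35 (adjusted p = 0.0360). Exo1 and Ube2t came next, with 0.41 ± 0.10 (adjusted p = 0.0505) and 0.95 ± 0.27 (adjusted p = 0.0658). For the other genes that rose in FAN1KO kidneys, this test did not show a difference between the genotypes. The median interaction was 0.37 over the members and 0.25 over all genes. After median-ratio scaling, with 2.01% of all genes higher and 0.749% lower, Ercc1 and Brca1 were called and Mad2l2 was not (1.02, adjusted p = 0.151). By voom on recovered reads Ercc1 was called (adjusted p = 0.0437), where 0.76% of all genes were higher. Brca1 and Mad2l2 lost the call by voom (adjusted p = 0.0739 and 0.126). With the level of Y-linked RNA as a covariate the interaction was called for 12 members, where 22.7% of all genes were called higher. Leaving out WT saline 1, WT saline 2, FAN1KO saline 2 or FAN1KO saline 3 reduced the count from 3 to 1. The share of all genes called in those fits is not given here.

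The pathway extends beyond these genes. Of 32 companion genes, such as the RPA subunits and the MRE11 complex, 31 were tested and 12 rose in FAN1KO against WT kidneys under cisplatin, with none lower and a median of 0.41 (38.7%, against 17.5% of all genes). The highest were Uhrf1, a hemimethylated DNA reader that also senses crosslinks, from 1.93 ± 0.809 to 7.41 ± 1.65 TPM (SD, n = 3, log2 fold change 1.54 ± 0.25, limma adjusted p = 0.00262), and Cenps, a histone-fold partner of FANCM, from 2.11 ± 1.04 to 6.95 ± 1.23 TPM (1.41 ± 0.28, adjusted p = 0.00651). Rad51ap1, a recombination accessory gene, went from 0.606 ± 0.342 to 1.97 ± 0.666 TPM (0.89 ± 0.20, adjusted p = 0.0120). Under saline and in WT kidneys under cisplatin 0 companion genes were called by limma or voom, and 0 of the 31 had an unadjusted p under 0.05. Cisplatin raised 19 of them in FAN1KO kidneys (61.3%, against 31.4% of all genes), and the interaction called 2 (6.45%, near the 4.29% of all genes). After median-ratio scaling 7 were higher and 1 lower in FAN1KO against WT under cisplatin, where 8.36% and 6.10% of all genes were, and for cisplatin against saline in FAN1KO kidneys the scaled counts were 10 higher and 1 lower, where 13.8% and 11.2% of all genes were.

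Markers of dividing cells and of tubule state moved in the same libraries. All 16 genes of a cell cycle list, among them Mki67, Top2a and Cdk1, were called higher in FAN1KO than WT kidneys under cisplatin, with a summed level of 75.4 to 100.9 TPM against 18.4 to 35.4 TPM, and 16.5 to 28.1 TPM in the saline groups. All 6 injured tubule genes were higher as well, summing to 7658 to 12150 TPM against 416.2 to 2220 TPM. Most of these sums was Spp1, at 6549 to 10990 TPM against 382.4 to 2071 TPM. Of 8 p53 response genes 6 were higher, with sums of 1020 to 1611 TPM against 532.4 to 843.7 TPM. The p53 response list summed to 166.2 to 217.3 TPM in the saline groups. Of 10 proximal tubule genes 5 were lower, at 3827 to 7553 TPM against 10480 to 12080 TPM, a list that stood at 11290 to 14500 TPM in the saline groups and shows the labelled tissue in all 12 libraries. Of 10 leukocyte, 5 endothelial and 6 fibroblast genes none was called in that comparison by limma or voom, with 1, 0 and 0 at an unadjusted p under 0.05, and leukocyte sums ran from 160.5 to 367.1 TPM against 74.6 to 212.8 TPM. Of 5 genes listed for the thick ascending limb and distal tubule, 1 was higher, Aqp2, the water channel of the collecting duct (log2 fold change 1.39, limma adjusted p = 0.0486), named after its value was seen. After median-ratio scaling 12 of the 16 cell cycle genes, 5 of the 6 injured tubule genes, 4 of the 8 p53 response genes and 0 of these 5 were higher, and 5 proximal tubule genes were lower.
In cisplatin against saline within FAN1KO kidneys, 15 cell cycle genes, all 6 injured tubule and all 8 p53 response genes were called higher and 6 proximal tubule genes lower. There 5 of the 10 leukocyte genes were called higher too, by limma, after median-ratio scaling and by voom, with sums of 160.5 to 367.1 TPM against 47.2 to 113.6 TPM. No endothelial or fibroblast gene was called by limma, with 1 of each at an unadjusted p under 0.05, and median-ratio scaling and voom each called 1 endothelial gene lower and 0 fibroblast genes. Of the 5 genes listed for the thick ascending limb and distal tubule, Aqp2 alone was called, higher (log2 fold change 1.79, limma adjusted p = 0.0111). No marker of these lists was at 0 in any library. The part of dividing cells, of tubule injury or of a changed mix of cells in the rise of the repair genes was not tested.

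Counting limits the lowest members. Eme1, Exo1, Fancd2, Polq, Fancb, Ube2t and Rad54l each had a library with fewer than 20 reads, whereas Slx4, Ercc4, Usp1 and Wdr48 had 785 or more reads in every library. In all, 17 of the 38 members overlap another gene of the table in their annotated span, among the called ones Ercc1, Fanca, Rad54l, Eme1, Fanci, Fancd2 and Mad2l2. The overlapping neighbour of Mad2l2, Draxin, had a mean of 0.0568 TPM.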

How the data were processed

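Total RNA of whole kidneys from 12 mice, 3 in each of 4 groups set by the labels, was sequenced. The authors deposited TPM values for 27179 genes by NCBI Gene number, and per the labels the build was mm10 and limma was used; the aligner and counter are not given in the sources used here. Names, coordinates and promoters came from RefSeq tables of GRCm38.p6, which named 25275 genes. The members and lists were chosen with earlier results of these data known. The 38 members are all accounted for; full values were given for Fan1 and for the 3 members of each role with the largest absolute log2 fold change in FAN1KO against WT under cisplatin, and of the companion genes those among the 4 with the largest were named, except 1 item that is not reported here. Rmi1, Polq and others with values were named after these had been seen.

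Group means (4) were fitted with limma 3.58.1 (R 4.3.3) to log2(TPM + 1) of the 18289 genes with a mean of at least 0.1 TPM, with a mean-variance trend and Benjamini-Hochberg adjustment over all of them (threshold 0.05). Whole reads were recovered from the TPM steps: 230576 of 230576 values in 20794 genes came out whole within 0.01 read, against 0 of 500 genes with values moved at random. Libraries held 37201758 to 82946655 such reads, which served depth and limma voom. The test was checked on simulated data with 200 changed genes, raised and lowered in equal number in the FAN1KO cisplatin group. Such data hold no shift of the whole table, so the check cannot show how the test handles one. Alternatives changed the pseudocount (0.1), filter, scaling, libraries in the fit, trend, covariate, block and unit, left out mitochondrial genes or each library in turn, and, added after seeing the data, kept only the 8 libraries with little Y-linked RNA. Protein sequences were not used here.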

Additional observations from a re-analysis of the deposited data

Results flagged for a closer look

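The interaction test of limma called 3 of the 38 repair genes (7.89%), all higher in FAN1KO. Of all genes 4.29% were called higher and 0.744% lower. Ercc1 responded by 1.54 more on the log2 scale in FAN1KO than in WT kidneys (adjusted p = 0.0360), Mad2l2 by 1.37 (adjusted p = 0.0135) and Brca1 by 0.81 (adjusted p = 0.0264), and over the alternatives the adjusted p ran from 0.000845 to 0.0935, from 0.00197 to 0.151 and from 0.00696 to 0.0739. In Polq all 3 FAN1KO cisplatin values lay above the FAN1KO saline values and all 3 WT cisplatin values below the WT saline values, an interaction of 0.22 that did not pass the limma test (adjusted p = 0.225).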

How the results depend on the processing

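In FAN1KO against WT under cisplatin the filter of at least 1 TPM in 3 libraries tested 27 members and called 6 higher (19.6% of all genes). Fanci and Ube2t passed that filter through the FAN1KO cisplatin libraries alone, and without all genes of that kind 5 of 25 were higher (18.6% of all genes left). In the same comparison, among the members, median-ratio scaling and voom on recovered reads each called 1 lower, Rmi1. For cisplatin against saline in FAN1KO, 14 were higher with that filter (34.9% of all genes), 11 after median-ratio scaling (13.8%) and 10 by voom (12.9%). The interaction called 5 without a filter (3.68%), 12 with the Y-linked covariate (22.7%) and 1 by voom (0.76%). With each library left out in turn, the counts of higher members ran from 8 to 12, from 14 to 22 and from 1 to 3 in these 3 comparisons, and were 0 under saline and in WT kidneys. The share of all genes called in those fits is not given here. These counts therefore do not separate a loss among the members from one in the whole table. The lowest counts in the first and the second came without FAN1KO cisplatin 1. With the 8 libraries of little Y-linked RNA they were 11, 23 and 3, against 24.6%, 39.2% and 10.2% of all genes. The replicate numbers did not pair the libraries (mean correlation of same-numbered libraries 0.0134, of others 0.0129), and a replicate block gave 11, 17 and 1, against 14.1%, 28.8% and 1.79%. Among single genes, the log2 fold change of Fan1 in FAN1KO against WT under cisplatin ran from -0.391 to 0.0221 with 1 library left out, the latter without FAN1KO cisplatin 3. That of Fancc in FAN1KO kidneys turned to -0.21 after median-ratio scaling, -0.25 by voom and -0.27 with the 8 libraries, and ran from -0.30, without FAN1KO saline 1, to 0.34 with 1 library left out. Where the table does not show the cause of such a change, the cause was not tested. Over all genes, the settings gave 1344 to 6573 higher and 370 to 1334 lower in FAN1KO against WT under cisplatin, against 3192 and 653, 2330 to 8753 higher for cisplatin in FAN1KO, against 5737, and 137 to 4157 higher for the interaction, against 784. The highest count of higher genes in each of these 3 comparisons came with the Y-linked covariate, at 35.9%, 47.9% and 22.7% of all genes. Counts of as few as 0 reads for Eme1 and 4 reads for Exo1 in a library limit the precision of their values.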
